A study of Homo sapiens with 6 samples.

Results

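MAPK8IP2 and 9 genes of the c-Jun N-terminal kinase (JNK) pathway were followed in HK-2 cells, an established human line of renal tubular epithelium, after cisplatin. The 10 genes were taken from the 28565 genes of the count table by their symbols. They are the scaffold genes MAPK8IP1, MAPK8IP2, MAPK8IP3 and SPAG9, the kinases MAP3K5 and MAP3K11, MAP2K4 and MAP2K7, and the JNK genes MAPK8 and MAPK9. The set was selected on the 24 h against 0 h values of these same libraries, in which MAPK8IP2 had rank 16 among 13389 genes tested when ordered by rise. The fold changes of the 10 genes are therefore descriptions, no p-value is given for them, and the count of them past the threshold is given once, beside that of all genes, with nothing read from it.

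The 3 libraries called 24 h came from cells exposed to cisplatin, a platinum drug that crosslinks DNA, for 24 h, and the 3 called 0 h from cells with 0 h of exposure. Cells of both groups had received, by lipofection, a plasmid that overexpresses a long noncoding RNA, LncR2 in the sample titles. Cells with a control plasmid were not analysed here, so the effect of the RNA was not measured, and cisplatin and time after transfection cannot be told apart. Nothing in the labels tells if libraries of the same group were separate cultures, and the design text speaks of 2 biological replicates where the titles number 3, so p-values measure only the spread between these libraries, which may be technical. RNA was depleted of ribosomal RNA before sequencing.

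The 24 h libraries held 6022268 to 7248754 counts each, against 5028881 to 5844246 for the 0 h libraries. In a principal component analysis, 0 h replicate 3 stood apart on the second component, at -30.4 against -5.27 to 15.9 for the 24 h libraries and -1.48 and 8.5 for the other 0 h libraries. Of 13 marker genes listed for tubule and epithelium, 12 were in the table and 7 were expressed highly enough to be tested, of which 0 were called (0 also at an unadjusted p under 0.05). Their summed level was 1110 to 1250 CPM (counts scaled to library size) at 24 h and 1170 to 1230 CPM at 0 h. KRT8, KRT18 and PAX8 carried most of it, whereas the proximal tubule markers CUBN, SLC34A1, AQP1 and ANPEP had at most 6 counts in any library, as did CDH1. GGT1, a brush-border gene of the proximal tubule, was expressed, at 59.1 ± 7.99 CPM at 24 h and 53.8 ± 1.67 CPM at 0 h (SD, n = 3 each). In bulk RNA, fewer cells with a transcript and less of it per cell cannot be told apart.

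The JNK pathway is a kinase cascade. MAP3Ks such as MAP3K5 (ASK1) and MAP3K11 (MLK3) phosphorylate the MAP2Ks MAP2K4 and MAP2K7, which phosphorylate the JNKs, and JNK phosphorylates JUN and other AP-1 transcription factors. JNK-interacting proteins (JIPs) hold the kinases of the cascade together and link them to kinesin motors. MAPK8IP2 encodes JIP2, known mainly from brain, and cisplatin is a known activator of JNK in tubular cells.

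MAPK8IP2 (ENSG00000008735.13, plus strand of chromosome 22, 50600685 to 50613981 in GRCh38) was the gene of the set that differed most. Its counts were 276, 322 and 285 in the 24 h libraries, against 118, 86 and 119 in the 0 h libraries. On the authors' FPKM scale, which divides by gene length and a library total, its level was 8.28, 9.39 and 8.07 at 24 h, against 3.90, 2.84 and 3.49 at 0 h. The relative totals that the FPKM imply are not the count totals. They were 6229471 against 7018785 counts for 24 h replicate 2, and 5491580 against 5039050 for 0 h replicate 1. Under them the median log2 fold change over all genes was 0.24, so FPKM differences between the groups hold this shift. Every 24 h library was higher than every 0 h library on both scales. Scaled by TMM, the level averaged 43.7 ± 4.07 CPM at 24 h and 20.5 ± 3.37 CPM at 0 h (SD, n = 3 each). The fold was 2.13, a log2 fold change of 1.09 ± 0.14 (standard error). Leaving out each library in turn gave log2 fold changes of 0.97 to 1.20.

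The promoter of MAPK8IP2 is shown because this gene differed most, and that of MAPK8IP3, another scaffold gene, because it holds a motif bound by CREB and ATF factors, to which JNK substrates belong. Both are RefSeq windows on GRCh38.p14 of 300 bases, from 250 before to 50 after the start, on the plus strand. They lie at chr22:50600543-50600842 for MAPK8IP2 and chr16:1705945-1706244 for MAPK8IP3. Capitals mark the GC box (GGGCGG or its reverse complement CCGCCC) and the cAMP response element TGACGTCA.
MAPK8IP2: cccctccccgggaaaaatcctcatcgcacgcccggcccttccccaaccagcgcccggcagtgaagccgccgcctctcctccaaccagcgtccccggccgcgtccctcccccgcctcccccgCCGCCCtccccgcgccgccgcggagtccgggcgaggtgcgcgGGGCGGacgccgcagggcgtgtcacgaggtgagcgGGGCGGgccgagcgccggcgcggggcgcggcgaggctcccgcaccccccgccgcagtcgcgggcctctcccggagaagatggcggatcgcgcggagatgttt
MAPK8IP3: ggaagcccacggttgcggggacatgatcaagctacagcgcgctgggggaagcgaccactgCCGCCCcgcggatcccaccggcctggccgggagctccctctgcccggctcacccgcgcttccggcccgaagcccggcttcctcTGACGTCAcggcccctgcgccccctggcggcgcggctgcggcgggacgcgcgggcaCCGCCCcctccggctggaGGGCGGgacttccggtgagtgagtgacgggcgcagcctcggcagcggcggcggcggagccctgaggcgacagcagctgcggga
The MAPK8IP2 window held 3 GC boxes, 0 cAMP response elements and 0 AP-1 motifs (TGANTCA), searched on both strands, and the MAPK8IP3 window held 3, 1 and 0 in the same order. Over all 35116 promoter windows, 45% held a GC box, 1.85% a cAMP response element and 7.71% an AP-1 motif. The MAPK8IP2 window was 78.7% G and C with 49 CpG dinucleotides, and 4.02% of all windows were as GC-rich or richer (median 58.7%). RefSeq windows were matched for 9 of the 10 genes, with 12 windows between them. Of those, 11 held a GC box, 1 a cAMP response element and 0 an AP-1 motif. A motif match is a description of the sequence and gives no measure of binding.

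The other scaffold genes had smaller differences. MAPK8IP1 (JIP1, chromosome 11, 45885651 to 45906465) had 50, 48 and 59 counts at 24 h and 26, 48 and 36 counts at 0 h, and 1.47, 1.37 and 1.64 FPKM at 24 h and 0.84, 1.55 and 1.03 FPKM at 0 h. MAPK8IP3 (JIP3, chromosome 16, 1706183 to 1770317) had 157, 170 and 142 counts at 24 h and 131, 109 and 87 counts at 0 h, with 2.81, 2.96 and 2.40 FPKM at 24 h and 2.59, 2.15 and 1.52 FPKM at 0 h. The 24 h and 0 h libraries overlapped for both genes in FPKM and in TMM-scaled CPM, whereas the raw counts of MAPK8IP3, from smaller libraries at 0 h, did not overlap. Their log2 fold changes were 0.15 ± 0.23 and 0.16 ± 0.18. Without 0 h replicate 3, that of MAPK8IP3 was -0.03.

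SPAG9 (JIP4, minus strand of chromosome 17, 50962174 to 51120865) was the most abundant scaffold gene. Its counts were 1373, 1555 and 1887 at 24 h and 1372, 1226 and 1633 at 0 h. Its FPKM was 15.97, 17.58 and 20.72 at 24 h and 17.60, 15.68 and 18.56 at 0 h. These overlapped, and the log2 fold change was -0.18 ± 0.11 with TMM scaling and 0.07 when the totals implied by the authors' FPKM were used. Under those totals the median over all tested genes stood at 0.24 (log2).

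Within the summed FPKM of the 4 scaffold genes, the composition differed between the groups. MAPK8IP2 made up 29%, 30.0% and 24.6% at 24 h, against 15.6%, 12.8% and 14.2% at 0 h. SPAG9 made up 56.0%, 56.2% and 63.1% at 24 h, against 70.6%, 70.6% and 75.4% at 0 h. Neither gene's shares overlapped between the groups, and the shares use the values that selected the genes. The MAPK8IP2 share averaged 27.9% ± 2.89 at 24 h and 14.2% ± 1.43 at 0 h (SD, n = 3 each), a difference of 13.7 percentage points. As shares of raw counts, without division by length, the difference was 7.63 points. MAPK8IP1 averaged 4.84% at 24 h and 4.84% at 0 h, and MAPK8IP3 8.87% at 24 h and 8.75% at 0 h. Because shares sum to 100%, a higher share of MAPK8IP2 lowers the rest by construction.

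**Figure D1:**
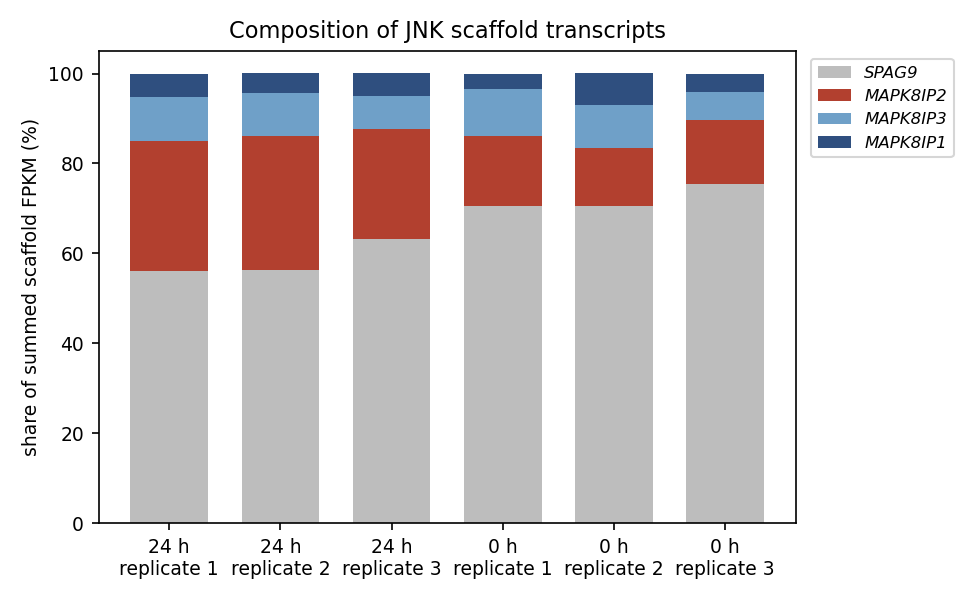
Share of each scaffold gene in the summed FPKM of the 4 scaffold genes (percent), with 1 bar per library, 24 h libraries left of 0 h libraries. MAPK8IP2 takes 24.6% to 30.0% at 24 h and 12.8% to 15.6% at 0 h.

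Ratios within a library are not touched by scaling between libraries. The FPKM of MAPK8IP2 over that of SPAG9 was 0.518, 0.534 and 0.389 at 24 h, against 0.222, 0.181 and 0.188 at 0 h. Over MAPK8, the JNK1 gene, it was 2.09, 2.09 and 1.38 at 24 h, against 0.949, 0.628 and 0.581 at 0 h. MAPK8IP2 was thus above MAPK8 in every 24 h library and below it in every 0 h library on the FPKM scale. Its ratios to MAPK8IP1, MAPK8IP3 and MAP3K11 also did not overlap between the groups. The ratios use the values that selected the genes, so nothing is read from the lack of overlap.

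The MAP3K genes averaged higher at 24 h, by less than MAPK8IP2. MAP3K5 encodes ASK1, a kinase held inactive by reduced thioredoxin, and lies on the minus strand of chromosome 6 at 136557047 to 136792518. It had 313, 359 and 360 counts at 24 h and 215, 207 and 243 counts at 0 h, and 6.11, 6.81 and 6.63 FPKM at 24 h and 4.63, 4.44 and 4.63 FPKM at 0 h. Its groups did not overlap on the FPKM scale or after TMM scaling, at 51.0 ± 1.41 CPM at 24 h and 42.1 ± 1.33 CPM at 0 h (SD, n = 3 each). The log2 fold change was 0.28 ± 0.11.

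MAP3K11 encodes MLK3, a mixed-lineage kinase that the JIP scaffolds bind, at 65597755 to 65615382 on the minus strand of chromosome 11. It had 528, 627 and 537 counts at 24 h and 317, 404 and 390 counts at 0 h. Its FPKM was 12.52, 14.45 and 12.01 at 24 h, against 8.29, 10.53 and 9.03 at 0 h. The groups did not overlap in FPKM, whereas after TMM scaling, at 83.8 ± 9.01 CPM at 24 h and 70.4 ± 8.11 CPM at 0 h (SD, n = 3 each), they did. The log2 fold change was 0.25 ± 0.12.

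The MAP2K genes differed little after TMM scaling. MAP2K4 (MKK4, plus strand of chromosome 17, 12020824 to 12143830) had 197, 199 and 221 counts at 24 h and 123, 171 and 198 counts at 0 h, with 5.17, 5.07 and 5.47 FPKM at 24 h and 3.56, 4.93 and 5.07 FPKM at 0 h. MAP2K7 (MKK7, the MAP2K that acts on JNK and not p38, plus strand of chromosome 19, 7903843 to 7914478) had 323, 373 and 323 counts at 24 h and 242, 267 and 280 counts at 0 h, with 9.42, 10.57 and 8.89 FPKM at 24 h and 7.78, 8.56 and 7.98 FPKM at 0 h. MAP2K7 did not overlap between groups in FPKM but did after TMM scaling, and MAP2K4 overlapped on both scales. Their log2 fold changes were 0.01 ± 0.12 for MAP2K7 and -0.03 ± 0.14 for MAP2K4, and 0.25 and 0.21 with the totals implied by the FPKM. The MAP2K7 to MAP2K4 ratio of FPKM averaged 1.84 ± 0.231 at 24 h and 1.83 ± 0.317 at 0 h (SD, n = 3 each).

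The JNK genes themselves averaged no higher at 24 h after TMM scaling. MAPK8 (JNK1, plus strand of chromosome 10, 48306639 to 48439360) had 237, 276 and 370 counts at 24 h and 222, 245 and 367 counts at 0 h, with 3.97, 4.50 and 5.86 FPKM at 24 h and 4.11, 4.52 and 6.01 FPKM at 0 h. MAPK9 (JNK2, minus strand of chromosome 5, 180233143 to 180292099) had 188, 203 and 248 counts at 24 h and 151, 147 and 223 counts at 0 h, with 2.87, 3.02 and 3.58 FPKM at 24 h and 2.55, 2.47 and 3.33 FPKM at 0 h. The groups overlapped for both genes, and replicate 3 was the highest library of its group for both genes in both groups. The log2 fold change was -0.28 ± 0.15 for MAPK8 and -0.06 ± 0.14 for MAPK9, and without 0 h replicate 3 it was -0.09 and 0.10. With the totals implied by the FPKM it was -0.03 for MAPK8 and 0.18 for MAPK9. MAPK10, the JNK3 gene, had 2, 3 and 6 counts at 24 h and 3, 4 and 4 counts at 0 h, too few to be tested.

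**Figure D2:**
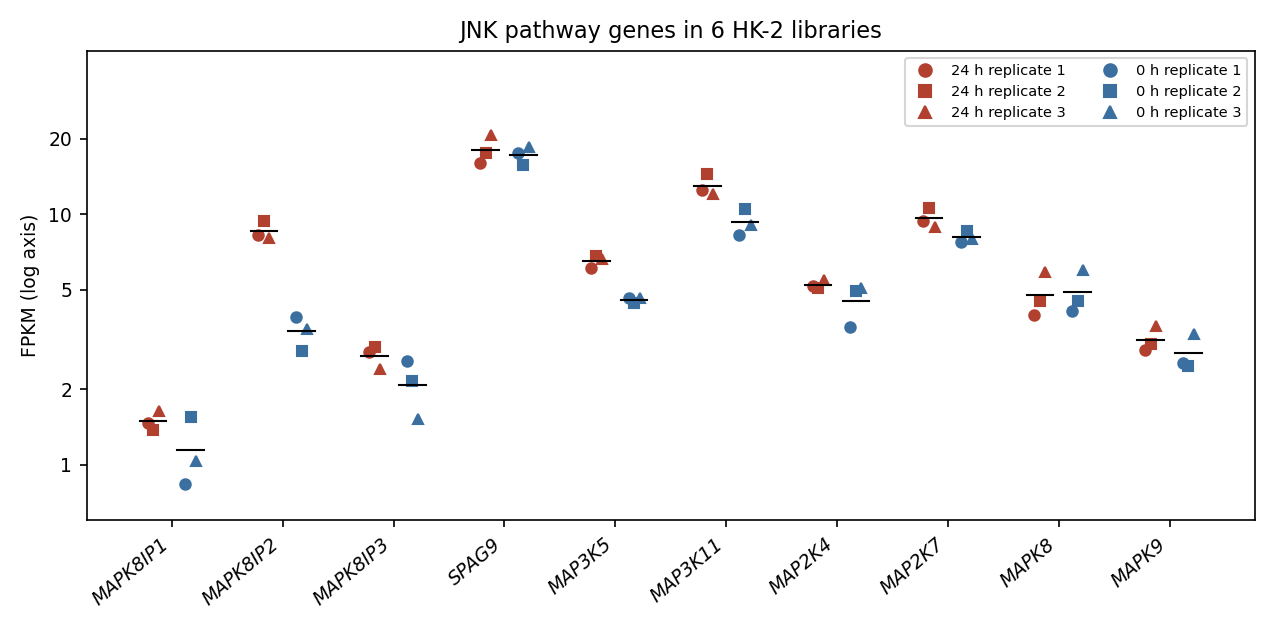
FPKM of each of the 10 genes in each library (points) with the group mean (black line), 24 h left of 0 h, by role in the pathway. MAPK8IP2 sits between 8.07 and 9.39 FPKM at 24 h and between 2.84 and 3.90 FPKM at 0 h.

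By level per length, SPAG9 led at 18.1 ± 2.42 FPKM at 24 h and 17.3 ± 1.47 FPKM at 0 h (SD, n = 3 each), followed by MAP3K11 at 13.0 FPKM at 24 h and 9.28 FPKM at 0 h. The order at 24 h then ran MAP2K7 (9.63 FPKM), MAPK8IP2 (8.58), MAP3K5 (6.52), MAP2K4 (5.24), MAPK8 (4.78), MAPK9 (3.16), MAPK8IP3 (2.72) and MAPK8IP1 (1.49). At 0 h it ran MAP2K7 (8.11 FPKM), MAPK8 (4.88), MAP3K5 (4.57), MAP2K4 (4.52), MAPK8IP2 (3.41), MAPK9 (2.78), MAPK8IP3 (2.09) and MAPK8IP1 (1.14). MAPK8IP2 was thus 4th at 24 h and 7th at 0 h. At 24 h the neighbours MAP2K7 and MAPK8IP2, MAP2K4 and MAPK8, and MAPK9 and MAPK8IP3 overlapped. At 0 h the neighbours SPAG9 and MAP3K11, and MAP2K7 and MAPK8, did not overlap, and each other pair of neighbours did.

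Of the 10 genes, all passed the low-count filter. By edgeR's quasi-likelihood test 1 (MAPK8IP2) was called higher and 0 lower, beside 0.866% and 2.08% of all 13389 genes tested. In CPM, 2 of the 10 genes were higher in every 24 h library and 0 were lower, beside 10.9% and 11.7% of genes. In FPKM, 4 were higher in every 24 h library and 0 lower, beside 33.3% and 3.01% of genes. These counts use the same values that selected the genes, so nothing is read from them. The median log2 fold change was 0.08 over the 10 genes and 0.00 over all genes tested, with 6 of the 10 above 0 and 4 below. With the totals implied by the FPKM, the log2 fold changes of MAP3K5 and MAP3K11 were 0.51 and 0.49, beside a median of 0.24 over all genes.

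**Figure D3:**
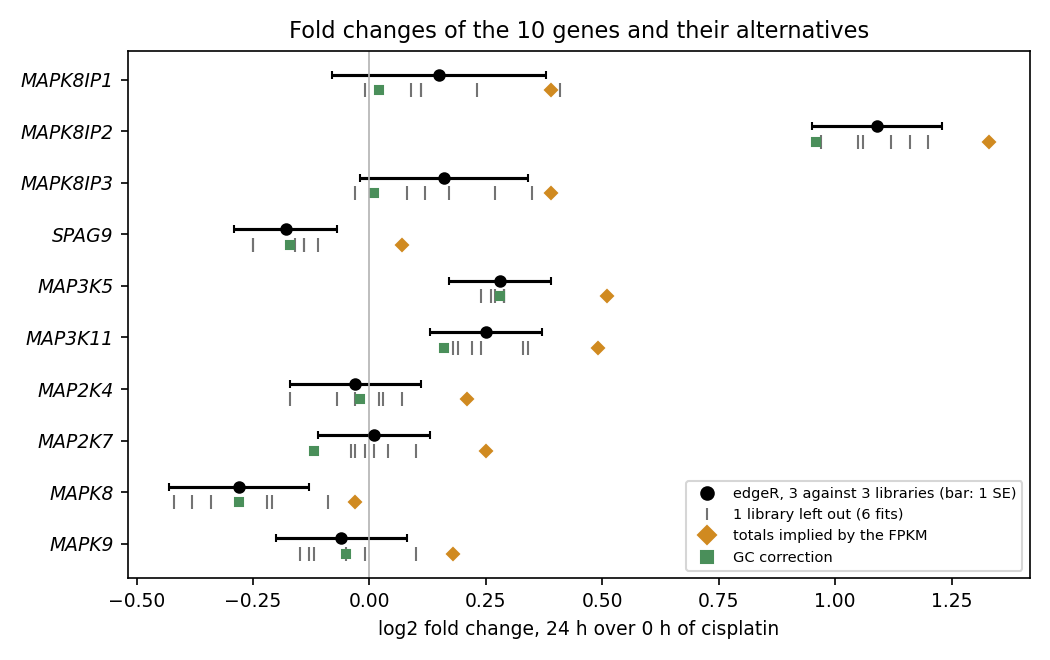
Log2 fold change, 24 h over 0 h, of each of the 10 genes with its standard error (n = 3 libraries per group). Other marks give the 6 fits without 1 library, the totals implied by the FPKM and the GC correction. MAPK8IP2 stands at 1.09, with settings from 0.96 to 1.33. The other genes lie between -0.28 and 0.28 in the main fit, with settings from -0.42 (MAPK8) to 0.51 (MAP3K5).

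The fold changes of all genes ran with the base composition of the transcripts only from 50% G and C upward. Transcripts of MAPK8IP2, MAPK8IP1, MAPK8IP3 and MAP2K7 were 63.2%, 63.7%, 64.6% and 62.9% G and C. The tested genes had a median of 47.9%. The 1780 tested genes of at least 60% had a median log2 fold change of 0.11, those of 55% to 60% 0.05 and those of 50% to 55% 0.00. The 2220 genes under 40% had one of -0.03, as had those of 40% to 45% and of 45% to 50%. With a correction for GC content, the log2 fold change of MAPK8IP2 was 0.96. The smaller values of the GC-rich genes moved further in proportion, to 0.02 for MAPK8IP1, 0.01 for MAPK8IP3, 0.16 for MAP3K11 and -0.12 for MAP2K7. MAP3K5 and MAPK8, with less GC-rich transcripts, stayed at 0.28 and -0.28.

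Around MAPK8IP2, the choline kinase gene CHKB runs on the opposite strand and overlaps it by 771 bases. The libraries were directional per the labels' protocols, but whether the counting used strand is not given in the sources used here, so reads in the overlap cannot be told apart. CHKB had 76, 79 and 52 counts at 24 h and 28, 37 and 40 counts at 0 h. These overlapped after TMM scaling, at 10.4 ± 2.86 CPM at 24 h and 6.63 ± 0.914 CPM at 0 h (SD, n = 3 each). In FPKM, CHKB was higher in every 24 h library, as were 33.3% of all genes tested. Its log2 fold change was 0.63 ± 0.24 (edgeR quasi-likelihood test, adjusted p = 0.165). ARSA, the arylsulfatase A gene 8773 bases downstream, had 71, 77 and 72 counts at 24 h and 49, 31 and 40 counts at 0 h, with a log2 fold change of 0.51 ± 0.21 and an edgeR adjusted p = 0.197. It was higher in every 24 h library in FPKM and also in CPM, as were 10.9% of all genes in CPM. CPT1B, a mitochondrial carnitine palmitoyltransferase gene, had a log2 fold change of -0.28 ± 0.20 (edgeR adjusted p = 0.501), and the read-through gene CHKB-CPT1B 0.12 ± 0.31 (edgeR adjusted p = 0.879). No neighbour that could be tested was called. CHKB-DT had 3 to 11 counts per library, and KLHDC7B, SYCE3 and U62317.3 had at most 2 counts in any, too few to be tested.

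The rest of the pathway was listed in 7 groups of 103 genes, of which 102 were in the table and 95 were tested. Of these, 1 was called higher (1.05%) and 2 lower (2.11%), beside 0.866% and 2.08% of all genes, and the median log2 fold change was 0.01. The genes were EREG, DUSP10 and JDP2. DESeq2 called 2 higher and 2 lower. With the totals implied by the FPKM, 23 were higher and 1 lower, and without 0 h replicate 3, 4 were higher and 8 lower. Without 1 other library at a time, 0 were higher and 1 to 2 lower, with 1 lower without 24 h replicate 2 or without 0 h replicate 2.

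Among the other MAP3K genes, 0 of 15 were called in either direction (2 at an unadjusted p under 0.05), and their median log2 fold change was -0.03. MAP3K6 (ASK2, a partner of ASK1) had 18.5 ± 1.95 CPM at 24 h and 12.7 ± 2.71 CPM at 0 h (SD, n = 3 each), at a log2 fold change of 0.55 ± 0.18 (edgeR adjusted p = 0.113). It was called higher in 5 of 17 alternative settings and in 0 of the 6 fits without 1 library. MAP3K7 (TAK1, a kinase of cytokine signalling) had 72.5 ± 6.60 CPM at 24 h and 85.5 ± 4.45 CPM at 0 h (SD, n = 3 each), at -0.24 ± 0.11 (edgeR adjusted p = 0.248). Without 1 library, 0 h replicate 3, 1 gene of this list was called higher and 1 lower.

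Of the inputs above the MAP3Ks, such as MAP4Ks, TRAF adaptors, RAC1 and GADD45 proteins, 0 of 15 were called (2 at an unadjusted p under 0.05), with a median of 0.04. GADD45A, a DNA damage gene whose product binds a MAP3K, had a log2 fold change of -0.31 ± 0.11 (edgeR adjusted p = 0.143). TXN, thioredoxin, had 553 ± 60.3 CPM at 24 h and 456 ± 54.0 CPM at 0 h (SD, n = 3 each), at 0.28 ± 0.12 (edgeR adjusted p = 0.214), and it was called higher without 0 h replicate 3 (0.38, edgeR adjusted p = 0.0147). TXN is the inhibitor that binds the product of MAP3K5, described above at 0.28 ± 0.11.

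Partners of the JIPs and related scaffolds gave 0 calls in 17 genes tested of 21 in the table (2 at an unadjusted p under 0.05), with a median of -0.08. MAPKBP1, a JNK-binding scaffold, had 13.2 ± 0.809 CPM at 24 h and 20.4 ± 4.56 CPM at 0 h (SD, n = 3 each), at -0.62 ± 0.18 (edgeR adjusted p = 0.0724). It was called lower in 5 of 17 alternative settings, the GC correction among them (-0.68, edgeR adjusted p = 0.0203). Of the 6 fits without 1 library it was called lower in 1, that without 0 h replicate 3 (-0.80, edgeR adjusted p = 0.000695). Of the kinesin genes whose products carry JIP cargo, KIF5B and KLC1 had the highest CPM, a scale not divided by length. Their log2 fold changes were -0.04 ± 0.12 and 0.12 ± 0.10. KLC2 was at -0.01 ± 0.15, KLC4 at -0.18 ± 0.19, KIF5A at -0.08 ± 0.42 and KLC3, with 4 to 16 counts per library, at 0.63 ± 0.40, and KIF5C was too low to be tested. FGF12, an intracellular FGF family gene, had -0.37 ± 0.16 (edgeR adjusted p = 0.251). MAPK13, a p38 kinase known to bind JIP2, was at 50.5 ± 1.52 CPM at 24 h and 53.2 ± 6.97 CPM at 0 h (SD, n = 3 each).

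Of the phosphatases that remove phosphate from JNK, 1 of 8 was called lower and 0 higher, beside 2.08% and 0.866% of all genes. Their median log2 fold change was 0.03, with 5 genes above 0 and 3 below. DUSP10 (a phosphatase for JNK and p38) had 713, 805 and 845 counts at 24 h, against 815, 922 and 911 counts at 0 h, in smaller 0 h libraries. Its TMM-scaled level averaged 117 ± 0.877 CPM at 24 h and 168 ± 11.0 CPM at 0 h (SD, n = 3 each), lower in every 24 h library than in any 0 h library. The log2 fold change was -0.53 ± 0.10 (edgeR adjusted p = 0.00637). The call ended without 24 h replicate 2 (-0.52, edgeR adjusted p = 0.0616), without 0 h replicate 2 (-0.47, edgeR adjusted p = 0.0675) and with the totals implied by the FPKM (-0.29, edgeR adjusted p = 0.0918). It also ended with limma on log2(FPKM + 1) (-0.28, limma adjusted p = 0.106) and on log2(FPKM + 0.1) (-0.29, limma adjusted p = 0.108). DUSP1, an early stress-induced phosphatase, had 0.33 ± 0.12 (edgeR adjusted p = 0.152) and was called higher without 0 h replicate 3 (0.42, edgeR adjusted p = 0.0299).

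AP-1 is a group of transcription factors on which JNK acts. Of 15 genes of AP-1 and related factors, the ETS factors ELK1 and ELK4 included, 1 was called lower and 0 higher. Their median log2 fold change was -0.06, and 3 were called lower without 0 h replicate 3. JUN, the JNK substrate, had 229 ± 17.5 CPM at 24 h and 239 ± 18.2 CPM at 0 h (SD, n = 3 each), at a log2 fold change of -0.06 ± 0.10 (edgeR adjusted p = 0.809). JDP2, a dimerization partner of JUN that represses AP-1 sites, had 58, 60 and 52 counts at 24 h, against 86, 77 and 104 counts at 0 h. Its level averaged 8.46 ± 1.23 CPM at 24 h and 16.9 ± 1.65 CPM at 0 h (SD, n = 3 each), at -1.0 ± 0.18 (edgeR adjusted p = 0.00486), with no overlap between the groups. The call held in each of the 6 fits without 1 library, and was not made by limma on log2(FPKM + 1) (-0.43, limma adjusted p = 0.0635) or on log2(FPKM + 0.1) (-0.71, limma adjusted p = 0.0704). ATF3, a stress-induced factor, had -0.46 ± 0.15 (edgeR adjusted p = 0.105), and was called lower without 0 h replicate 3 (-0.51, edgeR adjusted p = 0.0166).

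Of the known AP-1 targets, 9 of 12 were tested, with 1 called higher and 0 lower, and a median of 0.12. EREG, which encodes the EGF receptor ligand epiregulin, had 1059, 1263 and 1388 counts at 24 h, against 644, 759 and 760 counts at 0 h. Scaled by TMM, it averaged 183 ± 7.83 CPM at 24 h and 137 ± 10.5 CPM at 0 h (SD, n = 3 each), with no overlap, at 0.41 ± 0.10 (edgeR adjusted p = 0.0328) and 0.65 with the totals implied by the FPKM. The call was kept in 1 of the 6 fits without a library, that without 0 h replicate 3, and in the others the edgeR adjusted p ran from 0.0722 to 0.158. PLAU, the urokinase gene, had 631 ± 29.2 CPM at 24 h and 496 ± 50.9 CPM at 0 h (SD, n = 3 each), at 0.35 ± 0.11 (edgeR adjusted p = 0.0934). It was called higher in 7 of 17 alternative settings, DESeq2 and the GC correction among them, and in 0 of the 6 fits without 1 library. The matrix metalloproteinase genes MMP3, MMP9 and MMP10 had at most 8 counts in any library.

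**Figure D4:**
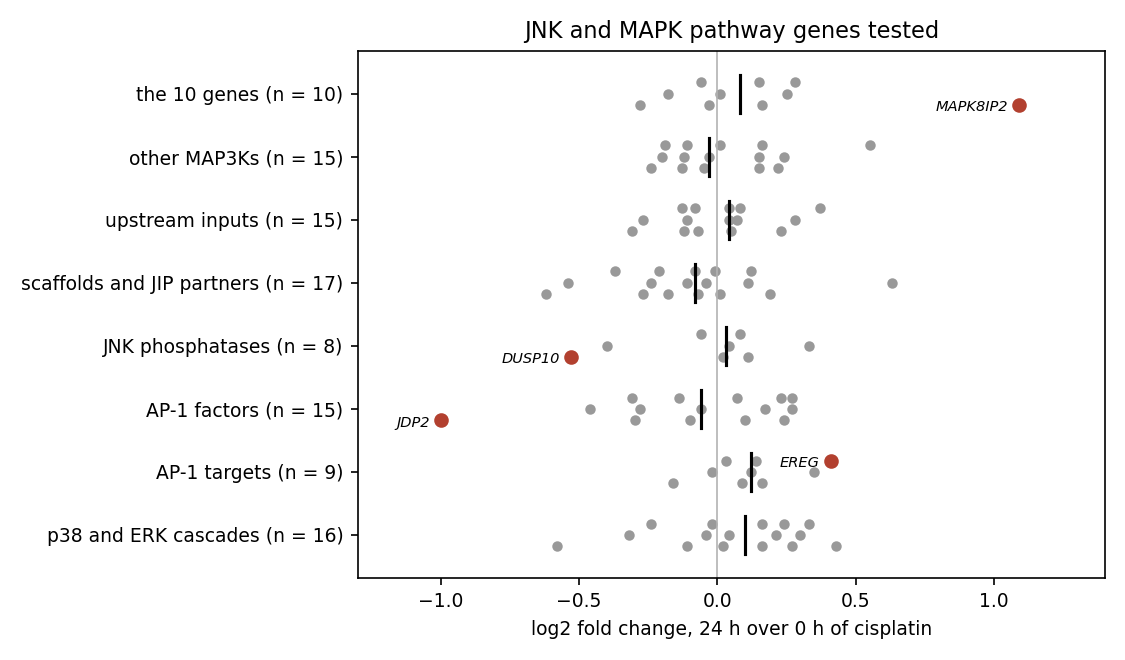
Log2 fold change, 24 h over 0 h, of every tested gene (points) in the set of 10 and in the 7 lists, with the median of each list (black line) and called genes in red. EREG at 0.41, DUSP10 at -0.53 and JDP2 at -1.0 are the called genes outside the set, and list medians lie between -0.08 and 0.12.

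The 5 genes whose centred log2 CPM across the 6 libraries was most like that of MAPK8IP2 were HIST1H4A, GPC1, CHMP1B, HAS3 and SFN, of 7509 candidates with at least 20 CPM on average. Their root mean square differences from it were 0.165, 0.198, 0.206, 0.207 and 0.220 on the log2 scale, beside a median of 0.576 over the candidates. HIST1H4A is a histone H4 gene whose near-identical copies make its counts uncertain, GPC1 a heparan sulfate proteoglycan gene, CHMP1B an ESCRT-III gene, HAS3 a hyaluronan synthase gene and SFN the 14-3-3 sigma gene. Of the set of 10, MAP3K5 was the gene most like MAPK8IP2, at 0.429, and MAPK8 the least, at 0.740.

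Because MAPK8IP2 is known mainly from brain, neuronal markers were listed too. Of 13, 12 were in the table and 8 were tested, with 0 called higher and 1 called lower. Their summed level was 227 to 271 CPM at 24 h and 207 to 269 CPM at 0 h, most of it from ENO2. RBFOX3, SLC17A7 and ELAVL4, which define neurons, had at most 3 counts in any library. Other listed genes were detected, among them SHANK3 at 18.1 CPM at 24 h and 15.7 CPM at 0 h, GAD1 at 9.36 CPM at 24 h and 9.31 CPM at 0 h, and SNAP25 at 2.73 CPM at 24 h and 2.03 CPM at 0 h. DLG4, a synaptic scaffold gene, was the lower gene, at 2.28 ± 1.02 CPM at 24 h and 6.64 ± 2.65 CPM at 0 h (SD, n = 3 each), at a log2 fold change of -1.55 ± 0.36 (edgeR adjusted p = 0.0291). SYT1, a synaptic vesicle gene, had -0.45 ± 0.16 (edgeR adjusted p = 0.150). Of 9 markers of fibroblasts, endothelium and blood cells, 7 were in the table and 2 (COL1A1 and CD68) were tested, with 0 called and 0 at an unadjusted p under 0.05, and they summed to 6.86 to 9.99 CPM at 24 h and 7.94 to 11.2 CPM at 0 h.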

How the data were processed

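The deposited read counts per gene are whole numbers, and the deposited FPKM values were made by the authors from 28561 genes. The submitters' processing notes name the tools bcl2fastq, TopHat2 and edgeR, and the build GRCh38. Not given in the sources used here are tool versions, the counter, the annotation, and how strand and multi-mapping reads were handled. Gene identifiers were matched to GENCODE 29 for positions and GC content (27925 genes, 97.8%).

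The 24 h libraries were compared with the 0 h libraries in R 4.3.3 by the quasi-likelihood test of edgeR 4.0.16 (with limma 3.58.1), after filterByExpr and TMM scaling and without covariates, and called at a Benjamini-Hochberg adjusted p under 0.05 over 13389 genes. The biological coefficient of variation was 0.103. Standard errors are the log2 fold change over the square root of the F statistic. Reads have no molecular identifiers, and errors hold counting error too. The scripts were tested on simulated data.

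The 10 genes, the lists and the tests were chosen with earlier results of these data known. Genes named are the 10, those called and the 2 with the smallest p in each list, the 5 most like MAPK8IP2, and neighbours within 50 kb. JUN, the kinesin genes, ELK1, ELK4, MAPK13, MAPK10 and the marker genes given by level are named for their role or to say what their list holds, after their values were seen. Totals implied by the FPKM were taken from 3570 genes with more than 300 counts and more than 1 FPKM in each of the 6 libraries. The labels state no pairing by replicate number, and the main fit used none. Between the groups, same-number correlations of deviations were 0.241, -0.02 and 0.422, and different-number ones ran from -0.368 to 0.226. Whether libraries of the same number share a batch was not tested.

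Alternatives were RLE and total-count scaling, the FPKM totals, other filters, DESeq2 1.42.0, limma on log2(FPKM + 1) and log2(FPKM + 0.1), the replicate block, a GC correction, and leaving out libraries.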

Additional observations from a re-analysis of the deposited data

How the results depend on the processing

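MAPK8IP2 kept its direction under all 17 alternatives, with log2 fold changes of 0.96 to 1.33, and moved most with the totals implied by the FPKM (1.33) and limma on log2(FPKM + 0.1) (1.31). Its share of scaffold FPKM was 13.7 points higher, and 7.63 points as shares of counts. Listed genes called higher numbered 1, with 23 for the FPKM totals, 3 with no filter, 2 with DESeq2, 12 and 11 with limma on log2(FPKM + 1) and log2(FPKM + 0.1), 2 without both libraries numbered 3, 2 with the GC correction, and 0 to 4 without 1 library. Those called lower numbered 2, with 1 for the FPKM totals, 0 and 0 with limma, and 1 to 8 without 1 library. With the FPKM totals, MAP3K7 stood at 0.01, against -0.24 in the main fit, beside a median of 0.24 over all genes. Under the same totals SPAG9, MAP2K4 and MAPK9, below 0 in the main fit, stood at 0.07, 0.21 and 0.18. The cause was not tested.

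Over all genes, 116 were higher and 278 lower, with 2350 and 192 for the FPKM totals, 345 and 395 with no filter, 1119 and 95 or 1079 and 87 with limma, 306 and 539 without the libraries numbered 3, 220 and 525 with the GC correction, and 21 to 574 and 92 to 923 without 1 library. The labels state no pairing by replicate number. With the replicate block, 7 listed genes were higher and 7 lower, and 739 and 959 of all genes.

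MAPK8IP1, with 26 to 59 counts per library, had a standard error of 0.23, the largest of the 10 genes, in which counting error and spread between libraries were not separated.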

Other observations

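The parallel p38 and ERK kinase cascades were also listed. Of their 16 genes, 0 were called in either direction by edgeR's quasi-likelihood test (5 at an unadjusted p under 0.05), and the median log2 fold change was 0.10. MAP2K2 (MEK2, which phosphorylates ERK) had 165 ± 21.9 CPM at 24 h and 134 ± 7.52 CPM at 0 h (SD, n = 3 each), at 0.30 ± 0.11 (edgeR adjusted p = 0.158). MAPK12 (p38 gamma) had 27.5 ± 5.66 CPM at 24 h and 20.4 ± 2.64 CPM at 0 h (SD, n = 3 each), at 0.43 ± 0.17 (edgeR adjusted p = 0.183). With the totals implied by the FPKM, 6 genes of the list were called higher, with limma on either FPKM scale 3, and with the replicate block 2. Leaving out both libraries numbered 3 gave 1 higher call. Without 0 h replicate 3, 1 gene was called lower.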
